A study of Rattus norvegicus with 110 samples.

Results

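The expression of 8 cell cycle genes was followed in the livers of 83 male rats that were given vehicle, a low dose or a high dose of carbon tetrachloride (CCl4). The genes were Mki67, Top2a, Cdk1, Ccnb1, Ccna2, Ccnd1, Pcna and Cdkn1a, found by their Ensembl identifiers, and they are 8 of the 31998 identifiers in the liver count table, of which 59.4% had counts that sufficed for testing. All 8 were above 0 in every liver library. CCl4 is an industrial solvent that hepatocytes convert to a reactive radical. The rats were F2 Sprague Dawley males of 4 ancestries. Cohort A had no treated ancestor, cohort B had an F1 sire treated with CCl4, cohort C had a treated F0 grandsire, and cohort D had both. Ancestors without CCl4 received the olive oil vehicle, and ancestors were mated after a recovery period. In each cohort, young adult F2 males received olive oil (vehicle), 8% CCl4 in olive oil (low dose) or 50% CCl4 in olive oil (high dose), v/v, at 0.5 ml/kg by oral gavage, 3 times per week for 39 days, and livers were taken about a day after the last dose. Each of the 12 groups held 7 males, except the vehicle group of cohort C, which held 6. Kidneys of the 27 vehicle males were also sequenced.

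The males came from 34 litters, each with its own F1 sire. Nearly every male of a dose came from a litter of its own, with 26 litters for the 27 vehicle males, 27 for the 28 low-dose males and 26 for the 28 high-dose males. Littermates were spread over the doses of a cohort, so the 3 groups of a cohort are largely drawn from the same families. Necropsies fell on 4 dates, each with all doses. The total count ran from 31638559 to 51343589 per liver library and from 21961746 to 35055218 per kidney library. One library, male 7 of the cohort D high-dose group, stood apart, with a median correlation of 0.936 to its group against 0.951 for the next lowest library. Its Mki67 level was 3567, and it was the highest of its group in 5 of the 8 genes (Mki67, Cdk1, Ccnb1, Ccna2 and Pcna). The calls below were recomputed without it. The liver is bulk tissue, so fewer cells of a type and less RNA per cell cannot be told apart. The markers fixed for hepatocytes could not be matched to identifiers, so the labelled tissue was not checked against them.

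Most hepatocytes of an adult liver rest outside the cell cycle and re-enter it when tissue is lost, which is what makes the liver known for regeneration. Progress through the cycle is driven by kinases that act only when bound to a cyclin. Cyclin D1 (Ccnd1) acts in G1 and responds to growth signals, cyclin A2 (Ccna2) acts in S phase and G2, and cyclin B1 (Ccnb1) with the kinase Cdk1 drives entry into mitosis. Top2a, a topoisomerase, untangles DNA before chromosomes separate, and Mki67 encodes Ki67, a chromosome surface protein used as a marker of cycling cells. Pcna is the sliding clamp of DNA polymerases and also serves DNA repair. Cdkn1a encodes p21, an inhibitor of cyclin-dependent kinases and a target of p53.

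Promoter sequences are shown for 4 genes that rose together with dose and, for contrast, for one that did not. They are RefSeq sequences on build GRCr8 from 250 bases before to 50 bases after the start of each gene, and 6 of the 8 genes matched (Mki67, Top2a, Cdk1, Ccnb1, Pcna and Cdkn1a). In capitals are 2 sets of letters known from promoters of mitotic genes, read on both strands: the CHR (TTTGAA or TTTAAA, or TTCAAA on the other strand) and the CCAAT box (CCAAT, or ATTGG on the other strand). The 5 printed are Ccnb1 at chr2:33655176-33655475 (minus strand), Cdk1 at chr20:19265043-19265342 (plus strand), Top2a at chr10:84473044-84473343 (minus strand), Mki67 at chr1:199952544-199952843 (minus strand) and Cdkn1a at chr20:7150682-7150981 (plus strand).
Ccnb1: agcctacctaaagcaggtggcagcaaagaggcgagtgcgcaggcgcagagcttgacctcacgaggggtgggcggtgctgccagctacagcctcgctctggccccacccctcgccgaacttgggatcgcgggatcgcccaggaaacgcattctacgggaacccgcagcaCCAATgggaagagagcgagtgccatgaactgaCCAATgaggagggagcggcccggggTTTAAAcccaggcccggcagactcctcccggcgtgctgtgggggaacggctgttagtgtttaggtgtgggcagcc
Cdk1: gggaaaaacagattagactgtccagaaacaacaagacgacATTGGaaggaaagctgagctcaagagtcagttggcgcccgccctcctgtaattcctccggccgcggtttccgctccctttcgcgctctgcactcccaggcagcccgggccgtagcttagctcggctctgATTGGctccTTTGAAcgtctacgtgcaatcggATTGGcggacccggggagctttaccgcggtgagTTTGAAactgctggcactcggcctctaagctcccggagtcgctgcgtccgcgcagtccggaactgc
Top2a: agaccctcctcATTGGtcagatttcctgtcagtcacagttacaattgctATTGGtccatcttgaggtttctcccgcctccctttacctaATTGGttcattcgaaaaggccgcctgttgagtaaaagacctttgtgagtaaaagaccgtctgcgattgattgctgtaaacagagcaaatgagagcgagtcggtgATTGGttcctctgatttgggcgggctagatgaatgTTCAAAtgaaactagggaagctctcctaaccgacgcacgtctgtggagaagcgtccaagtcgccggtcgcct
Mki67: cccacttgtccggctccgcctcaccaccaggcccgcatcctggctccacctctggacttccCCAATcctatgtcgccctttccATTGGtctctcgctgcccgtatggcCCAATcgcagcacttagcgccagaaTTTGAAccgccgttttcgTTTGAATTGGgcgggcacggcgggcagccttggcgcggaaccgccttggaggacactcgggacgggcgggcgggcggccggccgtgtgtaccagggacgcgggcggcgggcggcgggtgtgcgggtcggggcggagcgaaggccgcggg
Cdkn1a: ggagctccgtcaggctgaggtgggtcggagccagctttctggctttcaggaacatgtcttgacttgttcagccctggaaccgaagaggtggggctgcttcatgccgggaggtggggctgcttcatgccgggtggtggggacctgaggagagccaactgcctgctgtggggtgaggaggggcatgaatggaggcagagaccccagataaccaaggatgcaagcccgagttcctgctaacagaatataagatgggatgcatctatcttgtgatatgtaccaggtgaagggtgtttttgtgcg

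The Ccnb1 promoter held 1 CHR, 25 bases before the start, and CCAAT boxes 82 and 50 bases before it. The Cdk1 promoter held CHRs 72 and 16 bases before the start and 3 CCAAT boxes. In Top2a the CHR stood 22 bases before the start, with 4 CCAAT boxes further away, and in Mki67 CHRs stood 117 and 99 bases before it, with 4 CCAAT boxes. Pcna held 1 CCAAT box and no CHR, and Cdkn1a held neither. This is for 1 start per gene, and any other start of these genes was not read. A CHR was found in 28.3% of all 33469 rat promoters of this length, a CCAAT box in 37.5% and both in 11.3%, so neither set of letters is rare. The 8-letter E2F forms TTTCCCGC, TTTGGCGC and TTTCGCGC were found in Cdk1 alone among the 6, and in 1.72% of all promoters. A match is a run of letters and was not tested as a binding site.

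In vehicle livers the 8 genes lay at very different levels per transcript length. The median over the 27 vehicle males, in TPM, a share of all transcripts that was computed from the counts and transcript lengths, was 33.6 for Cdkn1a, 18.6 for Pcna and 11.5 for Ccnd1. The other 5 were far lower, at 0.481 TPM for Cdk1, 0.322 for Top2a, 0.318 for Ccnb1, 0.283 for Mki67 and 0.230 for Ccna2. In the kidneys of the same males all 5 were higher, from 0.693 TPM for Ccna2 to 1.56 for Cdk1, as were Ccnd1 at 54.2 and Pcna at 41.0, while Cdkn1a was lower at 8.38. Kidney and liver tables were normalized separately, so these levels are set side by side and were not tested.

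Mki67, Top2a, Cdk1, Ccnb1 and Ccna2 rose with dose in all 4 cohorts, Ccnd1 rose to a smaller extent, and Pcna and Cdkn1a did not pass the threshold against vehicle at either dose. A gene was called when its edgeR adjusted p, over all genes tested, was under 0.1 and its log2 fold change was above 1 in size. At the high dose 6 of the 8 genes were called in each cohort, all higher, where 15.4%, 18.2%, 14.4% and 16.6% of all genes were called higher in cohorts A, B, C and D. With the low dose 6, 3, 6 and 6 of the 8 were called higher in cohorts A to D, against 3.52%, 3.49%, 3.35% and 4.03% of all genes. The median log2 fold change of the 8 genes was 1.83, 1.20, 1.95 and 1.90 with low and 3.07, 4.27, 3.62 and 4.12 with high dose in cohorts A to D, where the median of all genes lay between -0.02 and 0.06. In the 24 calls at the high dose every high-dose male lay above every vehicle male of its cohort. At the low dose this held in 4 of the 32 combinations of gene and cohort: Mki67 in cohort D, Ccnb1 in B and Ccnd1 in C and D. Among all genes, 1.65%, 2.43%, 1.76% and 2.85% lay so in cohorts A to D at the low dose. At the high dose 10.4%, 11.8%, 8.19% and 7.99% did. With litter as a block, 15 of the 32 combinations were called at the low dose, without Ccna2 in cohort B, Ccnb1 and Cdk1 in A and C, and Top2a in C. Without the males of necropsy date 2, 13 were called, and without male 4 of the cohort A low-dose group, the highest of its group in 7 of the 8 genes, Cdk1 and Ccnb1 were no longer called in cohort A and Ccnb1 was called in B. That male moved several low-dose values of cohort A: without this library the log2 fold change went from 2.33 to 1.42 for Cdk1, from 2.07 to 1.32 for Ccnb1, from 2.00 to 1.46 for Ccna2, from 1.99 to 1.44 for Top2a and from 1.67 to 1.36 for Mki67.

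**Figure D1:**
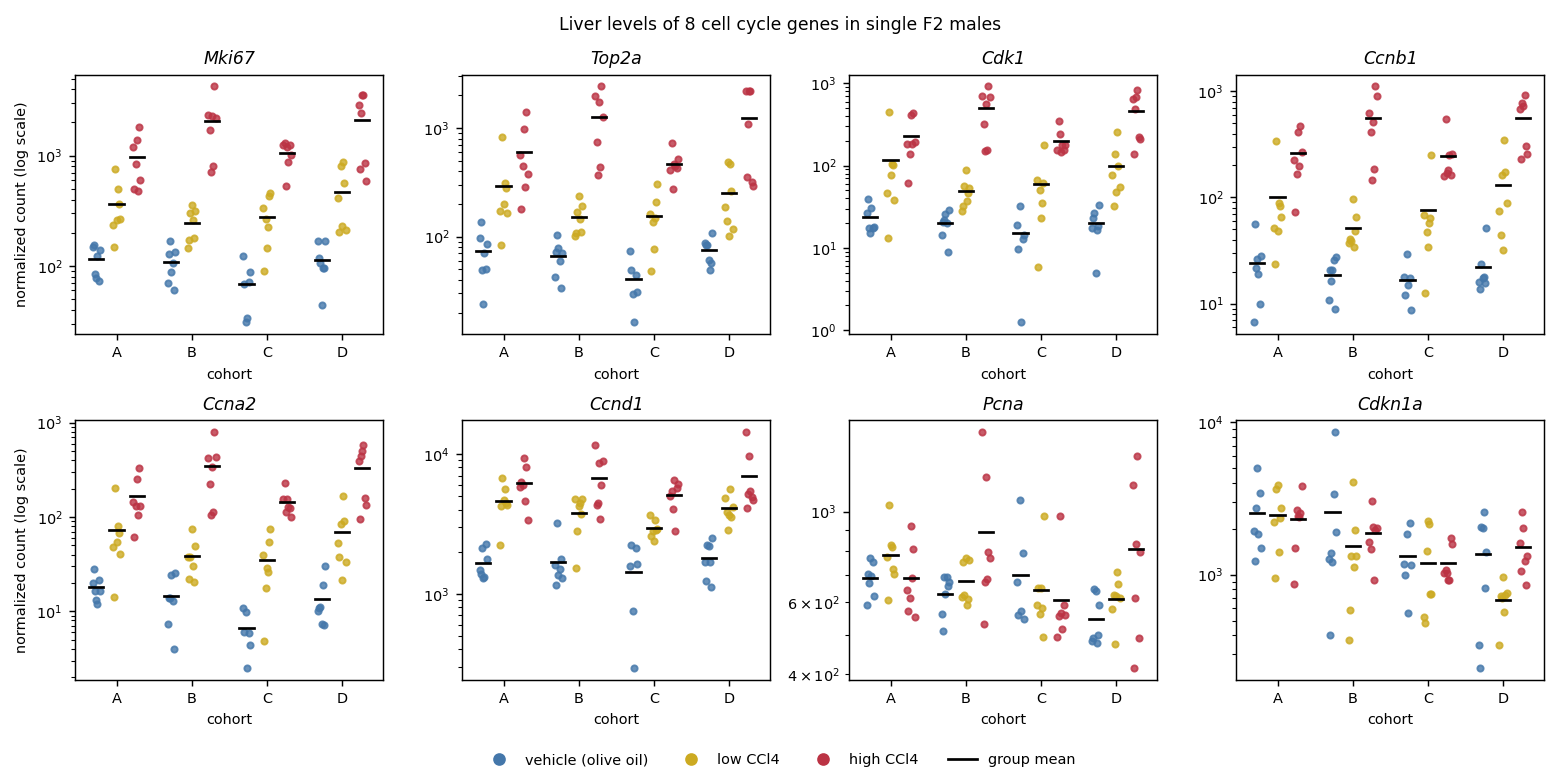
Normalized counts (log axis) of the 8 genes in every liver, by cohort and dose, with 1 point per male and a bar at the group mean. Mki67, Top2a, Cdk1, Ccnb1 and Ccna2 step upward from vehicle to low to high dose in each cohort, Ccnd1 does so over a smaller range, and Pcna and Cdkn1a overlap across doses.

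Ccnd1, the cyclin of G1, was the one abundant gene that rose. In cohort A the lowest, median and highest male had normalized Ccnd1 counts of 1289, 1481 and 2286 in vehicle, 2226, 4429.9 and 6684 with low and 3352, 6025 and 9323 with high dose. In cohort B these were 1158, 1503 and 3189, then 1518, 4259 and 4777, then 3422, 6022 and 11496. In both cohorts all high-dose males stood above all vehicle males, and the low dose overlapped vehicle. Cohort C ran 296, 1601 and 2218 in vehicle, 2397, 2853 and 3634 with low and 2789.6, 5449 and 6468 with high dose. Cohort D ran 1121, 1699 and 2512, 2880.0, 3826 and 5636 and 4111, 5186 and 14314 in the same order. In these 2 cohorts neither dose overlapped vehicle. The log2 fold change against vehicle was 1.46 ± 0.28 (SE), 1.14 ± 0.28, 1.03 ± 0.29 and 1.17 ± 0.28 after 8% CCl4, and 1.90 ± 0.29, 1.99 ± 0.29, 1.83 ± 0.30 and 1.93 ± 0.29 at the high dose for cohorts A, B, C and D, called in all 8 comparisons. On the log2 scale most of the rise was present at the low dose. From low to high dose Ccnd1 differed by 0.43 to 0.84, under the fold threshold in every cohort. This step was past the adjusted p in cohorts B, C and D (edgeR adjusted p = 0.0134, 0.0257 and 0.034) and not in A. In mean normalized counts it was the larger step in B, C and D, but not in A. Vehicle, low and high means were 1699, 3754 and 6731 in B, 1433, 2934 and 5079 in C and 1812, 4074 and 6898 in D.

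Ccna2, the cyclin of S phase and G2, had the lowest median count of the 8 genes at each dose. Over all cohorts the lowest, median and highest male stood at 2.52, 11.8 and 30.0 in vehicle, 4.86, 40.2 and 204 with low and 61.7, 155 and 795 with high dose. Its log2 fold change ran from 1.41 to 2.37 with low and 3.18 to 4.58 with high dose over the 4 cohorts, called in all 8 comparisons.

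Pcna did not pass the threshold in any comparison of doses. Vehicle males had 477, 641 and 1068 normalized counts (lowest, median and highest), low-dose males 475, 638 and 1038 and high-dose males 415, 657 and 1564, so the 3 ranges lay largely over each other. At the high dose the upper end was extended in cohorts B and D, whose high-dose males reached 1564 and 1371, the latter in the library that stands apart, with 1160 in the next male. The log2 fold change at the high dose was 0.50 ± 0.18 (edgeR adjusted p = 0.0155) in cohort B and 0.57 ± 0.18 (edgeR adjusted p = 0.0067) in cohort D, past the adjusted p but under the fold threshold. In cohorts A and C it was -0.00 ± 0.18 (edgeR adjusted p = 1) and -0.21 ± 0.18 (edgeR adjusted p = 0.389), with 95% intervals from -0.35 to 0.35 and from -0.57 to 0.16. RefSeq names 3 pseudogenes after Pcna, and 1 each after Mki67 and Cdk1, so the split of reads between these genes and their copies is uncertain.

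Cdk1, the kinase of mitotic entry, stood at 1.26, 18.5 and 39.0 in vehicle (lowest, median and highest of 27 males), 5.83, 54.8 and 447 with low and 61.7, 216 and 922 with high dose. All 28 high-dose males lay above every vehicle male of their cohort, and 22 of 28 low-dose males did. Its log2 fold change was 1.29 to 2.33 at the low dose, called in cohorts A, C and D but not in B (1.29 ± 0.53 (edgeR adjusted p = 0.19)), and 3.29 to 4.63 at the high dose, called in all 4.

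For Ccnb1, the partner of Cdk1, the males of cohort A had 6.73, 21.5 and 56.5 in vehicle (lowest, median and highest), 23.9, 66.0 and 339 with low and 72.5, 227 and 475 with high dose. Those of cohort B had 8.88, 20.6 and 27.6, 34.5, 40.3 and 97.2 and 147, 517 and 1113. All 3 groups of cohort B lay without overlap, while the low dose of cohort A reached into both of its neighbours. Those of cohort C had 8.74, 16.4 and 29.6, 12.6, 57.1 and 249.6 and 159, 181 and 549. Those of cohort D had 13.6, 17.3 and 51.4, 32.3, 89.1 and 347 and 229, 674 and 925. In cohorts C and D the low dose again overlapped both vehicle and high dose. At the high dose the fold change was 10.8 to 29.5 over the 4 cohorts, or 3.44 ± 0.52, 4.88 ± 0.55, 3.87 ± 0.58 and 4.65 ± 0.55 on the log2 scale in cohorts A to D. At the low dose the log2 fold change was 1.46 to 2.57, and the 1.46 ± 0.52 (edgeR adjusted p = 0.101) of cohort B was the only one not called.

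Top2a followed the same order, from 16.4, 60.4 and 137 in vehicle (lowest, median and highest) to 48.6, 167 and 824 with low and 180.4, 492 and 2422 with high dose. Its log2 fold change was 1.21 to 1.99 at the low dose, not called in cohort B (1.21 ± 0.46 (edgeR adjusted p = 0.134)), and 3.05 to 4.28 at the high dose, called in all 4 cohorts.

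Mki67 was called at both doses in all 4 cohorts. In cohort A the lowest, median and highest males had 72.5, 124 and 156 normalized counts in vehicle, 149, 268 and 764 with low and 474, 842 and 1819 with high dose. In cohort B they had 60.2, 106 and 167, 144, 262 and 357 and 708, 2202 and 4249. The low and high doses did not overlap in cohort B and did in cohort A. In cohort C they had 31.0, 70.3 and 122, 90.4, 267 and 454 and 531, 1189 and 1300.3. In cohort D they had 44.4, 107 and 168, 205, 412 and 883 and 589, 2456 and 3567. Of 28 low-dose males, 25 lay above every vehicle male of their cohort, and all 28 high-dose males did. The log2 fold change was 1.67 ± 0.39, 1.20 ± 0.39, 2.00 ± 0.43 and 2.06 ± 0.40 after 8% CCl4 and 3.09 ± 0.41, 4.25 ± 0.43, 3.93 ± 0.46 and 4.20 ± 0.43 at the high dose.

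**Figure D2:**
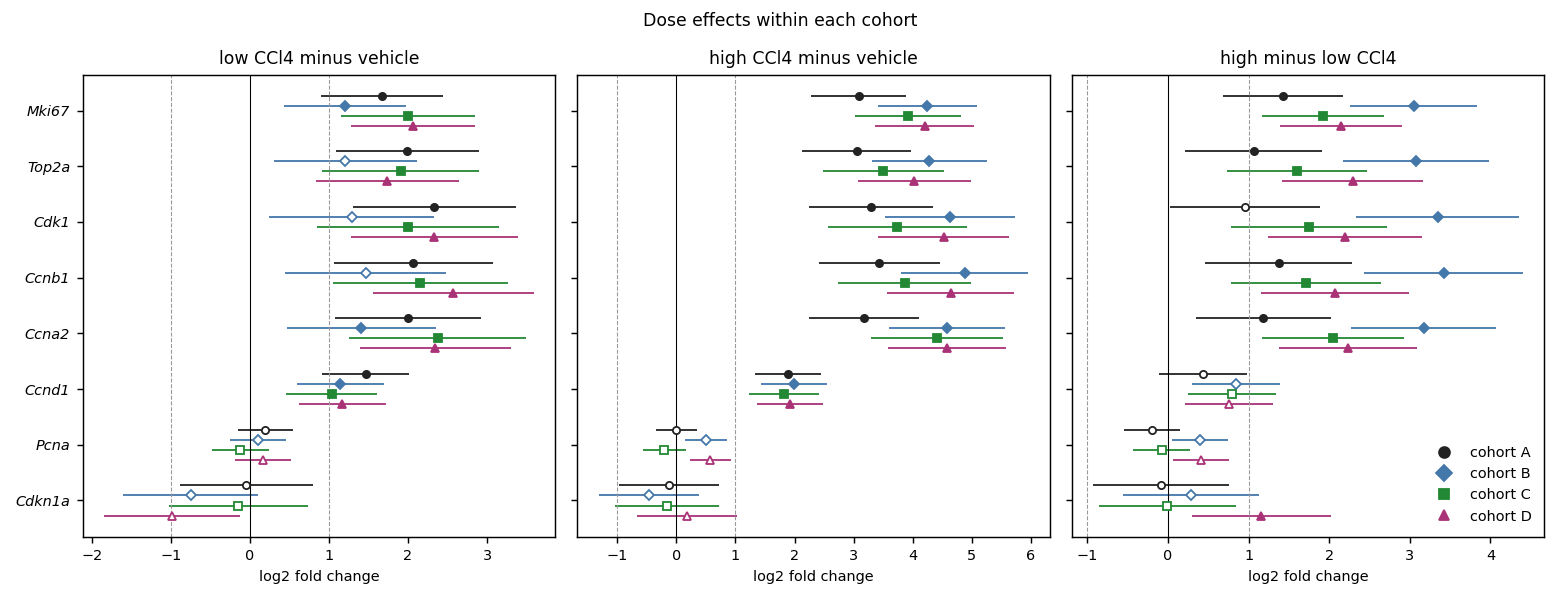
Log2 fold change of each gene at the low and high dose against vehicle, and at the high against the low dose, in cohorts A to D. Bars are 95% intervals of 1.96 SE from the edgeR fit, filled symbols are called, and dashed lines stand at the fold threshold of 1 in either direction. The 5 genes of S phase, G2 and mitosis lie between 3.05 and 4.88 at the high dose, Ccnd1 between 1.83 and 1.99, Pcna between -0.21 and 0.57 and Cdkn1a between -0.47 and 0.17.

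From the low to the high dose, 4, 5, 5 and 6 of the 8 genes were called higher in cohorts A to D, against 7.36%, 10.8%, 8.81% and 8.5% of all genes. The step was 1.42 to 3.05 for Mki67 and 0.96 to 3.35 for Cdk1 on the log2 scale, smallest in cohort A and largest in cohort B for both. In cohort A the Cdk1 step of 0.96 ± 0.47 (edgeR adjusted p = 0.127) was not called. Without male 4 of the cohort A low-dose group it was 1.91 (edgeR adjusted p = 0.00145) and called, above the 1.76 of cohort C, while the Mki67 step of 1.78 was still the smallest of the 4 cohorts. Cdkn1a was called in cohort D only, at 1.16 ± 0.44 (edgeR adjusted p = 0.0416), where its low-dose males had the low median of 728. Whether a dose effect differed between ancestries was tested by the interaction of cohort B, C or D, against A, with each dose. None of the 48 interactions was called by edgeR, where 0% of all genes tested were. The lowest adjusted p was 0.561, and 7 of the 48 had an unadjusted edgeR p under 0.05. All were at the high dose, 4 of 8 genes in cohort B and 3 of 8 in cohort D. Of all genes tested, 6.23% and 8.25% had such a p in these contrasts.

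The scaling between libraries bears on the genes that were not called. The TMM factors, which rescale each library's total so that most genes keep their level, had a median of 0.841 in vehicle, 0.942 with low and 1.27 with high dose. With library totals alone the median of all genes shifted by 0.11 to 0.23 at the low dose and by 0.51 to 0.73 at the high dose on the log2 scale, so values on that scale are read against that shift. On that scale Pcna was 0.70 (edgeR adjusted p = 0.0069) in cohort A, 1.19 in B, 0.35 in C and 1.30 in D at the high dose, with B and D called, where the median of all genes was 0.73, 0.66, 0.51 and 0.63. Cdkn1a was 0.53, 0.19, 0.41 and 0.72, below that median in cohorts A, B and C, and not called. The step of Ccnd1 from low to high dose was then called in cohorts B, C and D, at 1.40, 1.15 and 1.21, where the median of all genes was 0.53, 0.34 and 0.47. The 24 calls at the high dose became 26 and the 21 at the low dose 22.

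Dose accounted for most of the variation of the 6 genes that rose. Of the variance of log2 normalized counts over the 83 livers, dose took 79.1% for Mki67, 76.5% for Ccnb1, 75.4% for Ccna2, 71.7% for Top2a, 71.4% for Cdk1 and 67.6% for Ccnd1. It took 3.95% for Pcna and 4.43% for Cdkn1a. Within groups, males still differed widely. The SD of log2 normalized counts within groups at the high dose was 1.04 for Top2a, 0.90 for Cdk1, 0.86 for Mki67 and 0.56 for Ccnd1. At the low dose it was 0.85, 1.20, 0.77 and 0.43 in the same order. For Ccnb1 and Ccna2 it was 1.07 and 1.01 at the low dose against 0.88 and 0.87 at the high dose. Cdkn1a had its widest spread in vehicle, at 1.09 against 0.85 with low and 0.55 with high dose. Over the 5 genes of S phase, G2 and mitosis, the difference from vehicle within a single necropsy date ran from 0.56 to 2.61 at the low dose and from 3.10 to 4.35 at the high dose, on the log2 scale. On each of the 4 dates both were positive.

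At the high dose a gap lay between the males of cohorts B and D. In cohort D Mki67 was 589, 750.0, 859 in 3 males and 2456, 2899.6, 3508, 3567 in the other 4. In cohort B it was 708 and 810.0 in 2 males and 1708, 2202, 2289, 2354, 4249 in the other 5. The same males stood lowest in all 5 genes of S phase, G2 and mitosis in both cohorts, and in each cohort they came from 2 necropsy dates. In the high-dose groups of cohorts A and C the 3 males lowest in Mki67 were lowest in 2 and 1 of the 5 genes, Mki67 included. The number of lowest males was set at the gap seen in B and D and at 3 in A and C. These counts are thus not on equal terms, and the difference between cohorts was not tested. The high-dose males of cohort C spanned a narrower range, from 531 to 1300.3.

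Males with more of one mitotic gene had more of the others. Correlations were computed between males within a dose, after subtracting cohort means, for 84 combinations of gene pair and dose, and p was taken from 100000 permutations, two-sided, and adjusted over the 84. Over the 10 pairs among Mki67, Top2a, Cdk1, Ccnb1 and Ccna2, Pearson's r was 0.871 to 0.965 at the low dose and 0.825 to 0.955 at the high dose (n = 28 males, all adjusted permutation p = 4e-05, the smallest they can give after adjustment). Spearman's rho was 0.816 to 0.980 and 0.829 to 0.949, and without the 2 most distant males r was 0.829 to 0.956 and 0.793 to 0.944. In vehicle males (n = 27), where counts were low, r was 0.172 to 0.769 and 7 of the 10 pairs had an adjusted permutation p under 0.05. Within necropsy dates 1, 2 and 4 r was -0.339 to 0.963 in vehicle, 0.694 to 0.989 at the low dose and 0.743 to 0.979 at the high dose, and date 3 held too few males for a value. Because of the gap among the high-dose males of cohorts B and D, r was also taken apart: it was 0.559 to 0.925 in cohorts A and C and 0.899 to 0.986 in B and D.

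Ccnd1 went less closely with those 5 genes, at r = 0.458 to 0.678 at the high dose, where 4 of 5 pairs had an adjusted permutation p under 0.05, and at 0.327 to 0.366 at the low dose, where none had. Pcna, which was not called by dose, was also related to them at the high dose, at r = 0.435 to 0.644, with 3 of 5 pairs passing. Taken apart, r at the high dose was lower in cohorts A and C than in B and D for most of these pairs, at 0.176 to 0.649 against 0.617 to 0.75 for Ccnd1 and 0.058 to 0.575 against 0.517 to 0.710 for Pcna, and this difference was not tested. The pair of Mki67 and Pcna had r = 0.058 in A and C and 0.569 in B and D. Within dates 1, 2 and 4 r at the high dose was 0.472 to 0.864 for Ccnd1 and 0.071 to 0.807 for Pcna. For Cdkn1a, r with the 5 genes was -0.402 to -0.005 in vehicle males, 0.165 to 0.277 at the low dose and 0.217 to 0.306 at the high dose, and none passed. In vehicle males Cdkn1a went with Pcna instead, at r = 0.548 (adjusted permutation p = 0.00398), and at 0.258, 0.424 and 0.531 within dates 1, 2 and 4. The level of a gene in the vehicle liver was also set against that in the kidney of the same male, and none of the 8 genes had an adjusted permutation p under 0.05 (n = 27). The highest r were 0.448 for Ccna2, 0.434 for Cdkn1a and 0.411 for Cdk1, with adjusted permutation p of 0.0816, 0.186 and 0.0816, so Ccna2 and Cdk1 would pass at 0.1. Without the 2 most distant males they were 0.289, 0.262 and 0.314.

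**Figure D3:**
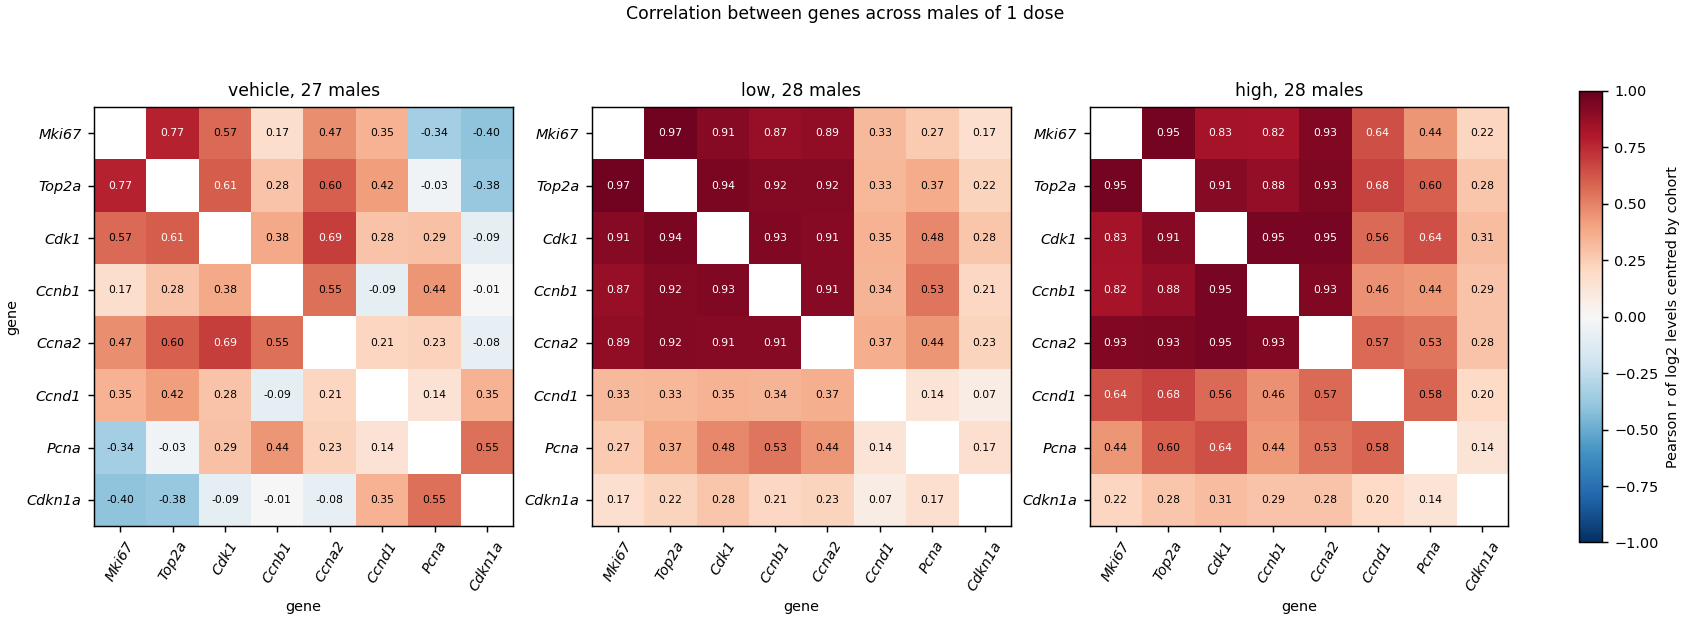
Pearson's r between genes over males of 1 dose, after subtracting cohort means, for vehicle (n = 27), low dose (n = 28) and high dose (n = 28). The block of Mki67, Top2a, Cdk1, Ccnb1 and Ccna2 is at 0.825 or more at both doses of CCl4, and Cdkn1a stands outside it.

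Among these high-dose males the mean levels of the mitotic genes were higher with a treated F1 sire than without. This contrast, the mean of cohorts B and D minus that of A and C at 1 dose, was chosen with these values known, so its adjusted p describe the difference and are no independent evidence of it. The mean Mki67 count at the high dose was 2068 ± 1209.5 (SD, n = 14) with a treated sire and 1015 ± 398 (SD, n = 14) without. The lowest, median and highest males stood at 589, 2246 and 4249 with a treated sire and at 474, 1104 and 1819 without, so the ranges shared their lower part. The log2 difference was 1.03 ± 0.26 (edgeR adjusted p = 0.0311) for Mki67, 1.24 ± 0.30 (edgeR adjusted p = 0.0225) for Top2a and 1.14 ± 0.30 (edgeR adjusted p = 0.0325) for Ccna2. It was 1.13 ± 0.32 (edgeR adjusted p = 0.0637) for Ccnb1 and 1.15 ± 0.33 (edgeR adjusted p = 0.0686) for Cdk1. These 5 of 8 genes passed an adjusted p under 0.1, against 1.45% of all genes called higher, while Ccnd1 at 0.28 ± 0.20 (edgeR adjusted p = 0.856), Pcna at 0.40 ± 0.13 (edgeR adjusted p = 0.122) and Cdkn1a at 0.03 ± 0.30 (edgeR adjusted p = 1) did not.

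Most of these calls were lost when 1 library or 1 necropsy date was left out, while the log2 differences kept their direction. Without male 7 of cohort D, the library that stands apart, 1 of the 8 genes passed (Top2a, 1.13 (edgeR adjusted p = 0.0914)), and Mki67 was 0.93 (edgeR adjusted p = 0.117). Leaving out necropsy dates 1, 2, 3 and 4 in turn left 0, 2, 0 and 2 of the 8, while the log2 difference of Mki67 ran from 0.92 to 1.14 and that of Cdk1 from 1.05 to 1.27 over all alternatives. The same contrast was not called for any of the 8 genes in vehicle or low-dose males, where 0.421% and 0% of all genes were. The difference between the F1 contrast at the high dose and that in vehicle males was itself not called for any of the 8, at 0.72 ± 0.39 (edgeR adjusted p = 0.538) for Mki67 and 1.11 ± 0.52 (edgeR adjusted p = 0.437) for Ccnb1, and 0% of all genes tested were called for it, so the contrast is not shown to be particular to the high dose. In the fit with 1 F1 term over all doses none of the 8 was called, where 0.0734% of the 12254 genes with a mean normalized count over 50 were. Within the 4 necropsy dates the difference at the high dose was 0.80, 1.06, 1.40 and 0.44 for Mki67 and 1.25, 0.95, 0.98 and 0.91 for Cdk1, on the log2 scale. Each cohort comes from 7 to 9 sires, whose number limits the precision of any contrast between ancestries.

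**Figure D4:**
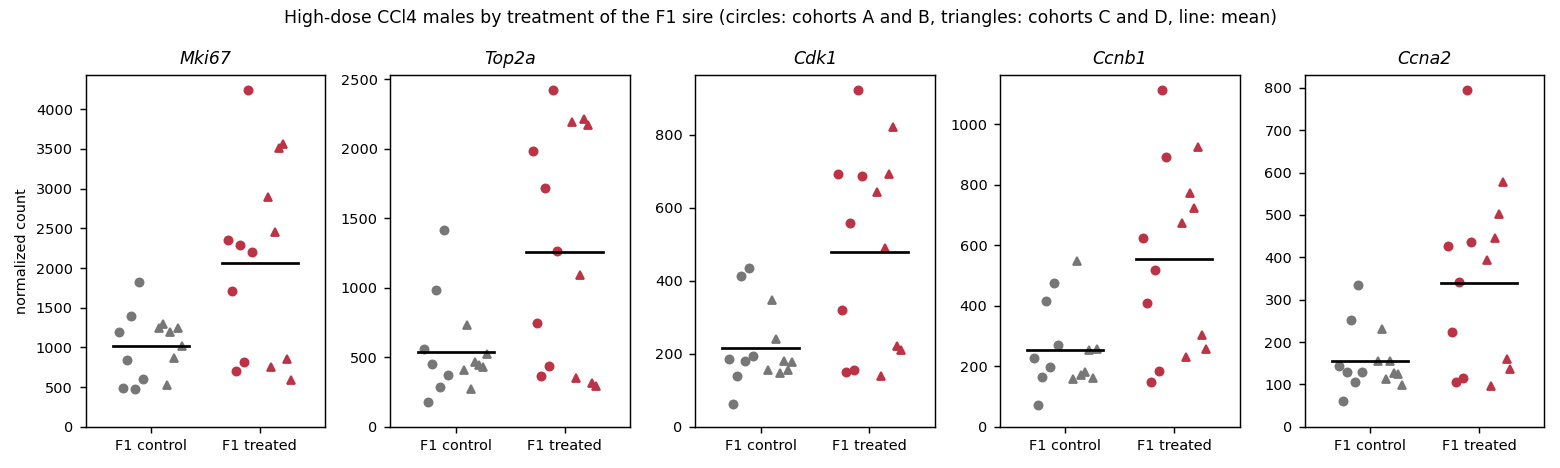
Normalized counts of Mki67, Top2a, Cdk1, Ccnb1 and Ccna2 in high-dose livers, with 1 point per male and a line at the mean, without (cohorts A and C, grey) and with (cohorts B and D, red) a treated F1 sire. In Mki67, 8 of the 14 males of B and D lie above the highest male of A and C, at 1819, and the others lie within the range of A and C.

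Cdkn1a, the inhibitor, was called for F0 ancestry and, against vehicle, for neither dose. Males with a treated grandsire (cohorts C and D) had a mean of 1340.4 ± 750.5 (SD, n = 13) in vehicle, 939 ± 593 (SD, n = 14) with low and 1357 ± 499 (SD, n = 14) with high dose. Males without (cohorts A and B) had 2567 ± 2111 (SD, n = 14), 1998 ± 1209 (SD, n = 14) and 2096 ± 805 (SD, n = 14). The ranges overlapped at each dose, and in vehicle males of cohort B alone they ran from 403 to 8613. The study placed F1 brothers in different F1 groups where possible, so males of cohorts A and B, or of C and D, can share a grandsire. Grandsires did not enter any fit. In the fit with F0, F1 and dose as terms, Cdkn1a was lower with a treated grandsire by a log2 fold change of -0.87 ± 0.18 (edgeR adjusted p = 0.000798). It was the only one of the 8 genes called, where 11.4% of the 12254 genes were called for F0 and 5.35% were called lower, so 1 of 8 is close to the share of all genes. At single doses it was -0.94 ± 0.32 (edgeR adjusted p = 0.117) in vehicle, -1.11 ± 0.31 (edgeR adjusted p = 0.126) at the low and -0.63 ± 0.31 (edgeR adjusted p = 0.589) at the high dose, none of them called in this fit, where 3.07%, 0.363% and 0.121% of all genes were.

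Cdkn1a was also the gene most tied to the day of necropsy, which took 36.8% of its variance within groups, against 0.601% to 7.39% for the other 7. The F0 difference within the 4 dates was -0.60, -0.74, -0.57 and -1.19 on the log2 scale, lower on each date. Its median on dates 1 to 4 was 1256, 2714, 1633 and 2198 without and 859, 1859, 1082 and 1012 with a treated grandsire. With date as a block Cdkn1a was called for F0 in vehicle males, at -0.91 (edgeR adjusted p = 0.0715), and in low-dose males, at -1.03 (edgeR adjusted p = 0.0617), but not at the high dose. Without the males of date 4 the F0 difference over all doses was -0.67 (edgeR adjusted p = 0.113), not called. In the kidneys of vehicle males the lowest, median and highest Cdkn1a counts were 279, 401 and 812 in cohort A, 149, 252 and 2076 in B, 135, 214 and 327 in C and 138, 184 and 385 in D. The F0 difference there was -1.26 ± 0.32 (edgeR adjusted p = 0.28), not called, where 2 of 12885 genes (0.0155%) were. Against dose, Cdkn1a in liver had log2 fold changes of -0.99 to -0.05 with low and -0.47 to 0.17 with high dose over the cohorts, none called.

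**Figure D5:**
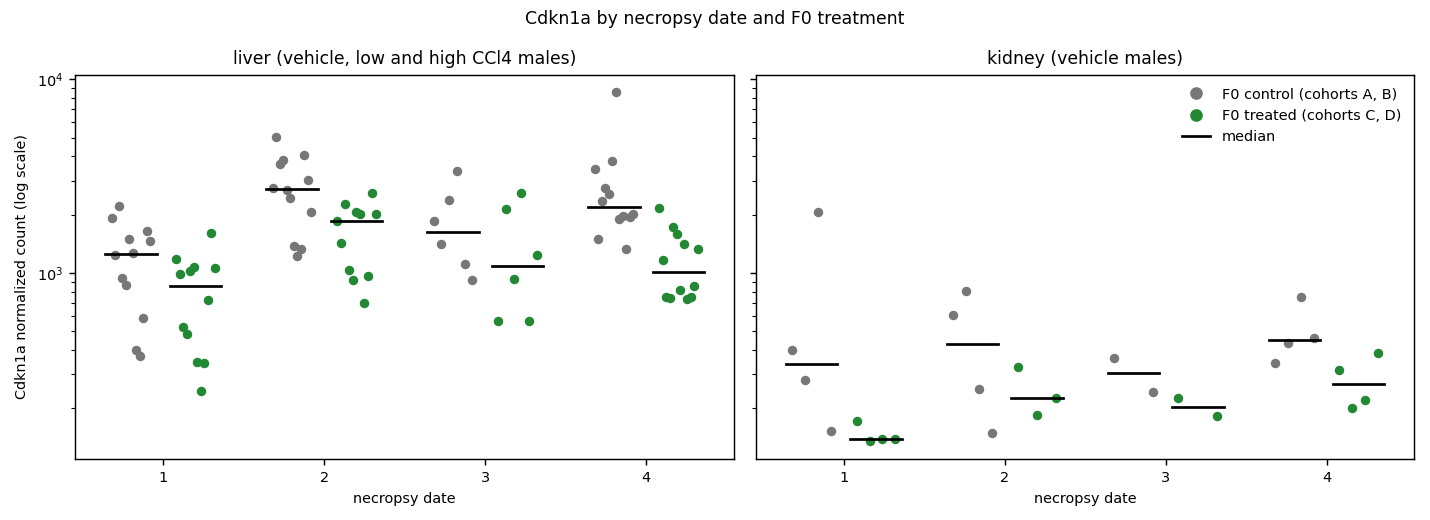
Normalized counts of Cdkn1a (log axis) in liver (all doses) and kidney (vehicle) by necropsy date, with 1 point per male and a line at the median, for males without (grey) and with (green) a treated F0 grandsire. The median with a treated grandsire lies lower on each date in both tissues. The ranges overlap on each date in liver and on dates 1, 2 and 4 in kidney, where each range is of 2 to 4 males.

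Other cell cycle genes could be read only in part. Symbols were paired with identifiers for 1489 genes, which the study selected for their F0 effect in these same samples, so their F0 differences are no independent evidence and are not described. In 5 lists of cell cycle genes and p53 targets 7 genes had an identifier: 1 of 27 in replication licensing and S phase (Mcm10), 3 of 18 among G1 cyclins, kinases and E2F (Ccne1, Cdc25a and Rb1), 1 of 44 in G2 and mitosis (Wee1), none of 6 among other CDK inhibitors, and 2 of 21 among other p53 targets (Plk3 and Tp53inp1). All 7 are named because so few matched. Ccne1, cyclin E1 of the entry into S phase, rose at the high dose in all 4 cohorts, at log2 fold changes of 1.70, 2.47, 2.05 and 2.52 in A to D (edgeR adjusted p of at most 8.52e-05), and was not called at the low dose. Wee1, a kinase that restrains Cdk1, rose at the high dose in all 4, at 1.41, 1.62, 1.16 and 1.58, and at the low dose in cohort D at 1.06. Plk3, a stress-responsive kinase, rose at the high dose in cohorts C and D, at 1.03 and 1.11, and had 0.51 in both A and B. Mcm10, Cdc25a, Rb1 and Tp53inp1 were not called at either dose. At the high dose Cdc25a, a phosphatase that activates CDKs, was at 0.42 to 0.73, Rb1, the retinoblastoma protein that holds E2F in check, at -0.58 to -0.37, Tp53inp1 at 0.46 to 0.85 and Mcm10 at -0.34 to 0.60, all under the fold threshold. Cdc25a was past the adjusted p in all 4 cohorts, Rb1 in A, B and D, Tp53inp1 in A, C and D and Mcm10 in none.

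Of the cell type markers, 3 had an identifier, 2 of 7 for macrophages (Cd163 and Cd14) and 1 of 5 for endothelial cells (Kdr), and none of those for hepatocytes, stellate cells, cholangiocytes, lymphocytes, red cell precursors or kidney tubule. The summed normalized count of Cd163 and Cd14 had a median of 3859 in vehicle, 4032 at the low and 4204 at the high dose, and neither gene was called by dose. The sum joins unlike courses. From vehicle to high dose, mean Cd163 went from 2710 to 2089 and Cd14 from 2123 to 3018 in cohort A. In cohort B they moved the other way, from 1875 to 2090 and from 2070 to 1780. Kdr was lower at the high dose by a log2 fold change of -1.47 in cohort A and -1.23 in B, both called, and had -0.65 in C and -0.87 in D. The part of a changed cell makeup in the rise of the mitotic genes was not tested.

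Among the genes with a symbol and a mean normalized count over 50 (1478 genes), those whose levels moved most like each of the 8 over the 83 livers, after subtracting group means, are given by Pearson's r as a description. The symbols come from that same F0 selection. Sgo2, shugoshin 2, a protein that guards cohesion of chromatids, was first for Mki67 (0.63), Top2a (0.70), Cdk1 (0.65), Ccnb1 (0.67) and Ccna2 (0.70). Ube2s, a ubiquitin-conjugating enzyme of the anaphase-promoting complex, was second for Top2a (0.56), Cdk1 (0.58), Ccnb1 (0.65) and Ccna2 (0.62), and Zbed4 was second for Mki67 (0.50). The third were Ndc1 for Mki67 (0.49) and Top2a (0.55) and H2ax, a histone variant, for Cdk1 (0.52), Ccnb1 (0.48) and Ccna2 (0.55). Ccnd1 went with Eif3b (0.49), Wdr1 (0.49) and Srpk1 (0.48), and Pcna with S100a6 (0.66), Ccl2 (0.65) and Fnta (0.65). Cdkn1a went with Sdc4 (0.71), Ube2g2 (0.68) and Tp53inp1 (0.67), the last itself a p53 target. These livers share necropsy dates and library preparation, and such residuals are not independent of either.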

How the data were processed

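Stranded mRNA libraries of liver and kidney were sequenced, and the authors quantified reads per transcript with Salmon 0.14.0 against Ensembl rat transcripts and summed them per gene with tximport in R 3.5.0. The deposited tables hold estimated counts per gene, already rounded and without normalization, as well as average transcript lengths in bases. A gene was tested if its counts summed to more than 10 over the males of any group, 59.4% of 31998 identifiers in liver. Tests were edgeR 4.0.16 quasi-likelihood tests with TMM factors in R 4.3.3 on 12 group means (doses and interactions) or on F0, F1 and dose terms, after the study's own designs, with Benjamini-Hochberg adjustment over all genes tested. The F0 and F1 terms were called at an adjusted p under 0.1 among genes whose normalized counts averaged over 50, and contrasts at 1 dose and interactions at an adjusted p under 0.1. SE is the size of the log2 fold change divided by the square root of F, and 95% intervals are 1.96 SE. Correlations used log2(normalized count + 1).

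Normalized counts are counts divided by TMM-scaled library size, and TPM were computed from counts and transcript lengths. Alternatives used DESeq2 1.42.0 and limma 3.58.1. The code was tested on simulated data. Groups came from the submitters' labels, and litters and dates were matched to each male by animal number. Of 77 same-numbered pairs within a cohort 59 shared a litter, and the mean residual correlation of littermates was 0.108 over 68 pairs, against 0.0101 for 684 pairs of other cohorts on the same date, so litter entered as an alternative block. The 8 genes and the lists were chosen with earlier results of these data known. Other genes named are the list genes with an identifier and, for each of the 8, the 3 genes with the highest r. Counts carry no molecular identifiers. Salmon maps reads to transcripts, so no genome coordinates enter the counts.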

Additional observations from a re-analysis of the deposited data

Results flagged for a closer look

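In each of 128 combinations of gene, tissue and group, the highest and lowest male were compared with the rest of their group by Dixon's test. In 22 combinations 1 male stood apart. The chance rate of about 1 in 20 is for independent, normally distributed values. These were counts of genes that vary together between males, so the 22 cannot be read against that rate. Normalized counts are given, with the nearest other male after the word against.

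Male 4 of the cohort A low-dose group was the highest in liver for Ccna2 at 204 against 79.4, Ccnb1 at 339 against 89.2, Cdk1 at 447 against 104 and Top2a at 824 against 312. Male 10 of the cohort C low-dose group was the highest for Ccnb1 at 249.6 against 69.0, Cdk1 at 179 against 66.7 and Pcna at 976 against 652. In kidney, male 4 of the cohort A vehicle group was the highest for Ccna2 at 61.9 against 31.1, Ccnb1 at 109.6 against 45.5, Cdk1 at 139 against 55.8, Mki67 at 524 against 217 and Top2a at 338 against 162.

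The other males stood apart in 1 gene each of a tissue. For Ccnb1 in liver they were male 2 of the cohort A vehicle group at 56.5, male 2 of the cohort C high-dose group at 549 and male 10 of the cohort D vehicle group at 51.4. For Ccnd1, male 4 of the cohort B vehicle group was high in liver at 3189 and male 5 of that group was low in kidney at 3879. For Cdkn1a, male 9 of the cohort B vehicle group was high in liver at 8613, male 1 of it in kidney at 2076, and male 10 of the cohort D vehicle group in kidney at 385. For Pcna, male 1 of the cohort C vehicle group was high in kidney at 1227 and male 4 of the cohort C high-dose group in liver at 978. The cause was not tested.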

How the results depend on the processing

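Over 1632 values of the 8 genes across dose comparisons and alternatives, 1516 kept their direction and their side of the threshold, 42 lost and 26 gained a call, and 48 changed sign, none of which had been called. All 24 calls at the high dose held under every alternative. With litter as a replicate block, 15 low-dose, 24 high-dose and 21 high-against-low combinations were called, against 21, 24 and 20. Low-dose calls fell to 13 without necropsy date 2, and were 20 without male 4 of the cohort A low-dose group. Of 24 F1 tests at 1 dose 5 passed, and 6 did with DESeq2 and 6 with library totals alone. At an adjusted p under 0.05, 3 passed, without dates 1 to 4 in turn 0, 2, 0 and 2, and without the library that stands apart 1. Pcna at the high dose was among those that passed with DESeq2, with library totals alone and without date 2. The difference of the F1 contrast between high-dose and vehicle males went from 0 calls to 1 with DESeq2 (Pcna). The F0 call of Cdkn1a became 0 calls without date 4 and in vehicle males alone, where it was -0.94 (edgeR adjusted p = 0.258). F0 tests at 1 dose went from 0 calls to 1 with DESeq2 and 2 with date as a block, all of Cdkn1a, and in kidney from 0 to 1 with DESeq2. On log2 CPM 37 of 84 correlations passed, against 38. The settings with library totals alone and without male 4 were chosen after seeing the data. The cause of these shifts was not tested.

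Among the dose comparisons, values that changed sign belonged to Pcna and Cdkn1a, and the F1 contrast of Cdkn1a at the high dose also did. Uncalled F0 differences of other genes did too, as over all doses for Mki67 (-0.29 to 0.07), Cdk1 (-0.32 to 0.01) and Ccnb1 (-0.10 to 0.24). Uncalled F1 differences did as well, as in vehicle males for Cdkn1a (-0.22 to 0.25) and Ccnb1 (-0.26 to 0.20), in low-dose males for Ccna2 (-0.15 to 0.32), and for Cdkn1a in the difference between high-dose and vehicle males (-0.50 to 0.53). With library totals alone, which shift the median of all genes upward, the dose values that changed sign were, on the log2 scale, for Cdkn1a 0.53 in cohort A at the high dose against vehicle, 0.19 in cohort B at the high dose against vehicle, 0.41 in cohort C at the high dose against vehicle, 0.38 in cohort A from low to high dose, 0.33 in cohort C from low to high dose, 0.14 in cohort A at the low dose against vehicle and 0.0797 in cohort C at the low dose against vehicle, and for Pcna 0.70 in cohort A at the high dose against vehicle, 0.35 in cohort C at the high dose against vehicle, 0.30 in cohort A from low to high dose, 0.27 in cohort C from low to high dose and 0.0854 in cohort C at the low dose against vehicle. For Cdkn1a the values that did so under the other alternatives were -0.25 and -0.0437 for the F1 contrast at the high dose, 0.18 in cohort A at the high dose against vehicle, 0.26 in cohort B at the high dose against vehicle, 0.0727 and 0.27 in cohort C at the high dose against vehicle, -0.13 in cohort D at the high dose against vehicle, 0.0323, 0.0965 and 0.23 in cohort A from low to high dose, 0.0056, 0.0071, 0.0085, 0.0203, 0.022, 0.0223, 0.0224, 0.15, 0.26, 0.45 and 0.91 in cohort C from low to high dose and 0.021 and 0.26 in cohort C at the low dose against vehicle. For Pcna the values that did so under the other alternatives were 0.0019, 0.0115, 0.0118, 0.0157, 0.0162, 0.0171, 0.0194, 0.0316, 0.034, 0.0536 and 0.0569 in cohort A at the high dose against vehicle, 0.0336 in cohort C from low to high dose, -0.0253 in cohort B at the low dose against vehicle and 0.0737 in cohort C at the low dose against vehicle. Depth limits the vehicle level of Cdk1 and Ccna2, whose lowest vehicle counts were 1 and 2 reads.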
